A study of Homo sapiens with 5 samples.

Results

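Genes of the H/ACA small nucleolar RNA (snoRNA) and small Cajal body RNA (scaRNA) families were examined in DAOY cells, an established human SHH medulloblastoma cell line. Members were the genes whose symbol started with SNORA or SCARNA and whose mean over the 5 libraries was at least 1 TPM, the transcripts of a gene per 1000000 transcripts. Of the 480 such genes listed, 126 reached this level, 107 with a SNORA and 19 with a SCARNA symbol. Members were thus selected on their mean level, and the contrast between the groups did not. All cells were transfected with 20 nM siRNA for 48 h, and total RNA was sequenced from 2 libraries with the non-targeting si-NC and 3 libraries with si-circ_63706, directed against a circular RNA from PCNT. A pair of siRNAs against circ_63706 was described in the study, and which one each library received is not given in the sources used here. The labels name no separate cultures, so p values measure the spread between these libraries, which may be technical. The libraries come from 1 cell line.

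H/ACA snoRNAs fold into hairpins, carry the ACA box close to their 3′ end and the ANANNA hinge box between the hairpins, and guide dyskerin to uridines that are turned into pseudouridine, mostly in ribosomal RNA. Most are cut out of introns of host genes after splicing, and the bound H/ACA proteins protect them from exonucleases. scaRNAs direct the same kind of modification, and 2′-O-methylation, in the snRNAs of the spliceosome within Cajal bodies. Not all members were H/ACA RNAs by what is known of them. Of the 19 scaRNA entries, 10 were of the H/ACA kind, 5 carried both C/D and H/ACA domains (SCARNA5, SCARNA6, SCARNA12 and 2 entries for SCARNA10), and 4 were of the C/D kind, which guides methylation (SCARNA7, SCARNA9 and 2 entries for SCARNA2). Each class was assigned from general knowledge.

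Sequences of the members with the clearest differences were taken from the GENCODE 29 transcripts on GRCh38. The first pair lies in EIF4A2 on the plus strand, SNORA81 at chr3:186786675-186786852 and SNORA63 at chr3:186787300-186787431. It is followed by SNORA48 at chr17:7574713-7574847 on the plus strand in EIF4A1, and SNORA61 at chr1:28579764-28579893 on the minus strand in SNHG12. The last pair is SNORA73A at chr1:28507366-28507571 and SNORA73B at chr1:28508559-28508762 on the plus strand in SNHG3, the members with the highest levels. Capitals mark ACA exactly 3 bases before the 3′ end and the match to ANANNA nearest to the middle of the RNA, where N is any base. SNORA63 and SNORA81 have no ACA at this place of their annotated 3′ end.
SNORA81: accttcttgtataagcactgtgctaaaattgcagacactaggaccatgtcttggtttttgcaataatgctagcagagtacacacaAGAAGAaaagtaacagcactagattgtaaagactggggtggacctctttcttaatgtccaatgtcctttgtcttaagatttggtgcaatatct
SNORA63: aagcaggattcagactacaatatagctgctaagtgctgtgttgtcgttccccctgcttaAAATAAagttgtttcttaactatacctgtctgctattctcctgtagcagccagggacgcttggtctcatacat
SNORA48: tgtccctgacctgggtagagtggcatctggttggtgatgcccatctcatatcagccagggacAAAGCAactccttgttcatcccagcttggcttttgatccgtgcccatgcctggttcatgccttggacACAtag
SNORA61: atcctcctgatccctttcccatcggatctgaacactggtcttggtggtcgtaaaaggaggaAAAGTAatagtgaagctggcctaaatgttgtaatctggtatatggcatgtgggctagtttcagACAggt
SNORA73A: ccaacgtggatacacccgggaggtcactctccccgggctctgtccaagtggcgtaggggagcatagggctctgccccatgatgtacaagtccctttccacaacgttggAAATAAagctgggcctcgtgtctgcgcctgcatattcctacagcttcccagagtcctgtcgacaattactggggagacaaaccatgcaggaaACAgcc
SNORA73B: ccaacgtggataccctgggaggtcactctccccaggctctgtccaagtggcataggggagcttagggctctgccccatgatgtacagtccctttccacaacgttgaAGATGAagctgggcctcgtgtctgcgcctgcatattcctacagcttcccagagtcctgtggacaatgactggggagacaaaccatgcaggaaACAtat

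A second set shows 3 scaRNAs that passed the test for a difference, and SCARNA5, the neighbor of SCARNA6 in ATG16L1. SCARNA5 (chr2:233275727-233276002, plus strand), SCARNA6 (chr2:233288676-233288940, plus strand) and SCARNA12 (chr12:6967337-6967606, minus strand, in PHB2) hold both domains, and SCARNA16 (chr17:77089307-77089493, plus strand, in SEC14L1) is of the H/ACA kind. Capitals mark TGAG, the letters of the box that retains H/ACA scaRNAs in Cajal bodies. In the RNAs with both domains they also mark the letters of box C, TGATGA, within the first 15 bases and of box D, CTGA, within the last 15 bases. In SCARNA16 they also mark ACA 3 bases before the end. CTGA and TGAG overlap at the ends of SCARNA5 and SCARNA6, and TGATGA and TGAG overlap at the start of SCARNA12.
SCARNA5: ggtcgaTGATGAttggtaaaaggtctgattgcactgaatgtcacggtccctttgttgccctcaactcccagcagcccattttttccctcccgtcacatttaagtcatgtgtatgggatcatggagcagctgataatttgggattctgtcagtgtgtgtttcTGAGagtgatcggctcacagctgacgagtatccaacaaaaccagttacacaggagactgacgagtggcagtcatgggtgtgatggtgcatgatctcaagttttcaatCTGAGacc
SCARNA6: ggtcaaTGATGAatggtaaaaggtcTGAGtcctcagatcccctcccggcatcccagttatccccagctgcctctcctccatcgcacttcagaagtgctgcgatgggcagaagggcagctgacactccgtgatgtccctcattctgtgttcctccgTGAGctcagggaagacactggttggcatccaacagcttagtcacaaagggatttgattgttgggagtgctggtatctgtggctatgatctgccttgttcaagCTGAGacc
SCARNA12: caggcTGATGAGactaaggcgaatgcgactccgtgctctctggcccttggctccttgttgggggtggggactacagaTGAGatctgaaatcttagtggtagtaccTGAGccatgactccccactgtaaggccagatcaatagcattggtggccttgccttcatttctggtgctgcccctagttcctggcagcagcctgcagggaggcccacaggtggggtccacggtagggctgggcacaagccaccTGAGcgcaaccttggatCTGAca
SCARNA16: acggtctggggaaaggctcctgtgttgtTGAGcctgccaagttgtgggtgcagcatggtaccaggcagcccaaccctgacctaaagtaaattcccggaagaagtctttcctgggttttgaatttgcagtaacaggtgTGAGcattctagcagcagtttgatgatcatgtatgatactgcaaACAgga

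The letters of the ACA and hinge boxes followed the symbols. Of 105 SNORA members with a single annotated transcript, 77 (73.3%) had ACA 3 bases before the 3′ end, 97 (92.4%) had ANANNA in the middle of 3 equal parts of the RNA and 73 (69.5%) had both. Among 313 SNORA genes under the minimum, 58.5% had the ACA, 80.2% the ANANNA and 47.9% both. Among 363 genes of the C/D family (SNORD), 1.93%, 38.0% and 0.275% did. ANANNA is a loose motif, and SNORD genes are shorter, with a median of 78 bases against 134. In the scaRNA entries, ACA was at this place in 8 of 10 of the H/ACA kind and in none of the 9 others, and TGAG was found in 7 of 10 and in all 9. By comparison, 43.8% of the SNORA members and 81.0% of the SNORD genes held TGAG, so it did not set the scaRNA entries apart. The entries with both domains and those of the C/D kind are also longer, with medians of 270 and 386.5 bases. The search read the strand of the RNA, and a match is a description of letters.

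The level of the members spanned more than 3 orders of magnitude, from 1.01 to 2725 TPM with a median of 6.96 TPM. The mean was at least 100 TPM in 19 members and under 5 TPM in 58. SNORA73A and SNORA73B, the U17 RNAs needed for cleavage of the precursor of 18S rRNA, stood at the top. SNORA73A had 2888 and 2907 TPM after si-NC, against 2954, 2385 and 2493 TPM after si-circ_63706. SNORA73B had 1738 and 1766 TPM after si-NC, against 2360.2, 1720.02 and 1916 TPM after si-circ_63706. In both, the groups overlapped, and neither difference passed the test (adjusted p = 0.224 and 0.296 by limma). Without si-circ_63706 replicate 1, SNORA73A was lower by log2 -0.25 (adjusted p = 0.0146). Together with SNORA63 they held 48.4% and 48.5% of the members' summed TPM with si-NC and 47.8%, 44.97% and 45.7% with si-circ_63706.

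The other highly expressed members were the longer SCARNA10 entry, the nested SCARNA10 entry, SCARNA7, SNORA48, SNORA22, SCARNA13, SNORA79, SCARNA2 and SNORA74A. SNORA79 is named SNORA79B in GENCODE 29. It had 227 and 206 TPM after si-NC, against 208, 187 and 147 TPM after si-circ_63706, a log2 fold change of -0.27 ± 0.14 (SE; adjusted p = 0.163 by limma). Its groups overlapped. SCARNA13, of the H/ACA kind, had 215 and 223 TPM after si-NC, against 186, 196 and 209 TPM after si-circ_63706. All 3 values with si-circ_63706 were lower, and the difference missed the threshold (log2 fold change -0.15 ± 0.06, adjusted p = 0.0803).

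Below this top, the values were sparse. Of the 126 members, 62 were above 0 TPM in all 5 libraries, 17 were listed at 0 in 1 library, 11 in 2, 29 in 3 and 7 in 4. Among listed genes of 130 to 139 bases, the lowest TPM shared by genes of the same length lay between 1.2 and 3.30 in the 5 libraries. The search for shared values left out those nearest to 0 TPM, so it gives no floor of detection. Single values below the shared ones also occurred, such as 0.11 TPM for SNORA3A (ENSG00000200983) in si-circ_63706 replicate 2. The depth is unknown because TPM keeps no counts. In 32 members the mean of 1 group was under 1 TPM, so that they reached the minimum only through the other group.

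The members nearest to the minimum were a SNORA75 gene (ENSG00000206885, mean 1.01 TPM), a SNORA2 gene (ENSG00000206647, 1.02 TPM) and a SNORA42 gene (ENSG00000200385, 1.04 TPM). Each was above 0 in 2 of 5 libraries. Just below were SNORA16A (ENSG00000280498, 0.988 TPM), a SNORA40 gene (ENSG00000274458, 0.872 TPM) and a SNORA51 gene (ENSG00000206878, 0.864 TPM). The values on both sides of the minimum differed little.

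Facts of the libraries bear on all comparisons. Every column sums to 1000000 TPM over all biotypes. Protein-coding genes held 29.02% of it in either si-NC library, and 25.2%, 26.2% and 26.9% of it after si-circ_63706. The summed TPM of tested snRNA genes was 88220.1 and 89713 with si-NC and 140218, 115336 and 110827 with si-circ_63706. The median log2 fold change of all 12710 genes tested was -0.16, and 0.00 after each library was centred. Centred values are therefore given for called members and their hosts where they change a call, and the part of these shifts in any result was not tested. The PCNT gene had 9.96 and 10.4 TPM after si-NC, against 8.80, 7.99 and 7.54 TPM after si-circ_63706. A level per gene does not tell linear from circular PCNT RNA, and no test of PCNT is given here. By qPCR, the study reported PCNT expression as not affected by these siRNAs. Of 12 SHH subgroup markers, 10 reached 1 TPM, against 1 of 8 for Group 3 and Group 4 and 1 of 4 for WNT. GLI1 (mean 0.352 TPM) and ATOH1 (0.014 TPM) were the SHH markers that did not. The highest genes of the SHH list were FLNA (125 TPM) and YAP1 (16.8 TPM), and LEF1 of the WNT list had 5.86 TPM. The study names YAP1 staining for both WNT and SHH tumors, so YAP1 does not separate these subgroups. The subgroup was not tested by these levels. In RNA from whole cultures, fewer cells of a kind and less RNA per cell cannot be told apart.

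The question of the main comparison was which members changed after circ_63706 was targeted. Members moved in both directions. Of 126 members, 10 rose and 8 fell with si-circ_63706 (limma on log2(TPM + 1), adjusted p under 0.05 over all 12710 genes). All 10 that rose and 7 of the 8 that fell had a mean of at least 1 TPM in both groups. That is 7.94% and 6.35% of the members, where 4.16% of all genes tested were called higher and 35.4% lower. The median log2 fold change of the members was -0.14, next to -0.16 for all genes. With centred libraries, 14 members were higher and 5 lower, where 13.1% and 13.7% of all genes were called, and the medians were 0.02 and 0.00. All 10 higher members and 5 of the 8 lower ones were called both ways. Values of the groups did not overlap in 16 members that were higher and 14 that were lower with si-circ_63706, where 8.93% and 55.2% of all genes were so placed. The summed TPM of all members was 12079 and 12635 with si-NC and 13431, 11192 and 11519.6 with si-circ_63706, and the groups overlapped.

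**Figure D1:**
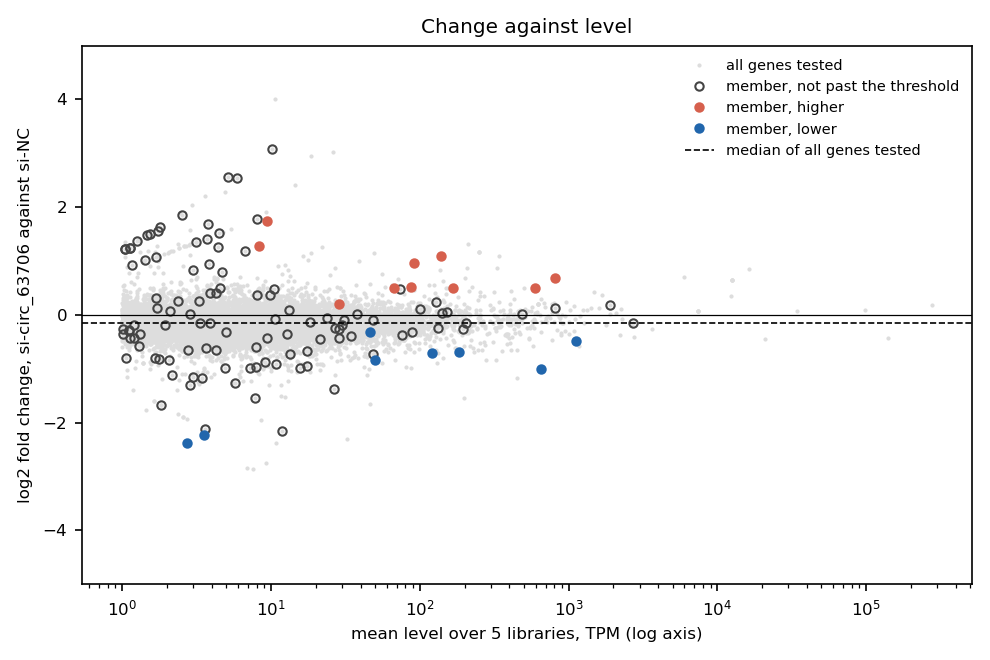
Each point is a gene, with its mean level over the 5 libraries in TPM on a log axis and its log2 fold change of si-circ_63706 against si-NC on the vertical axis. Members past the threshold are filled, all 12710 genes tested are gray, and the dashed line is their median of -0.16. Of the 40 members with at least 20 TPM, 8 were higher (20%) and 6 lower (15%), against 4.16% and 35.4% of all genes.

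Among 40 members with a mean of at least 20 TPM, 8 rose (20%) and 6 fell (15%), where 4.16% and 35.4% of all genes were called. The groups did not overlap in 11 higher and 8 lower members, where 8.93% and 55.2% of all genes were so placed. The shares of all genes cover every level from 1 TPM. Among the 64 members listed at 0 in at least 1 library, none was called higher and 2 (3.12%) were called lower (limma). In 3 of them (4.69%) the unadjusted limma p was under 0.05, where 50.2% of all genes had such a p. Of the 18 members called, 8 kept their call when each library was left out in turn. A fit without a si-NC library has a single si-NC library, takes its spread from the 3 si-circ_63706 libraries alone and assumes that si-NC libraries vary like them. The members that kept their call were SNORA48, SNORA81, SNORA74A, SNORA37, SCARNA12, SCARNA2, SCARNA6 and the nested SCARNA10 entry. Of these, SNORA37 had si-NC values near the lowest TPM that recurs among genes of similar length.

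**Figure D2:**
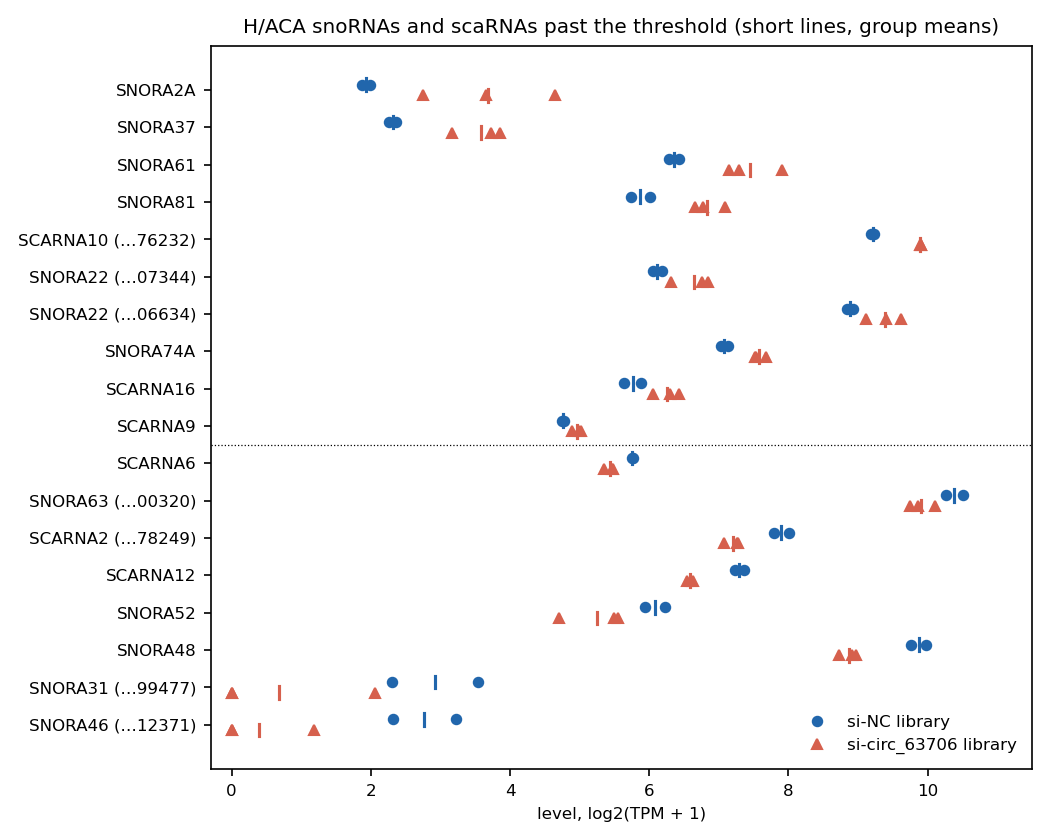
The 18 members past the threshold, with circles for si-NC libraries (n = 2), triangles for si-circ_63706 libraries (n = 3) and short lines for group means on the log2(TPM + 1) scale. The 10 members above the dotted line rose and the 8 below it fell; the groups overlap in none of them.

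Among the SNORA members that guide changes in ribosomal RNA, SNORA48 fell most of the called members with at least 20 TPM. SNORA48 had 869.7 and 1012 TPM after si-NC, against 501, 481 and 421 TPM after si-circ_63706. Every si-circ_63706 value was below both si-NC values. The mean went from 941 ± 100.3 (SD, n = 2) to 468 ± 41.9 TPM (SD, n = 3), 0.497 of the si-NC level, with a log2 fold change of -1.01 ± 0.10 (SE; limma adjusted p = 0.00138). Its host EIF4A1, a helicase of translation initiation, fell less, from 642 ± 5.01 to 469.99 ± 9.64 TPM (log2 fold change -0.45 ± 0.04, adjusted p = 0.00137). SNORA48 lies within an exon of at least 1 annotated EIF4A1 transcript, so reads could be split between both. The other member in EIF4A1, SNORA67, was listed at 15.2 and 0 TPM after si-NC, against 6.17, 0 and 3.68 TPM after si-circ_63706.

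SNORA63 in EIF4A2 also fell. It had 1226 and 1456 TPM after si-NC, against 1100.1, 927 and 855 TPM after si-circ_63706. The groups did not overlap, and the log2 fold change was -0.48 ± 0.12 (SE; limma adjusted p = 0.0215). The call was lost with centred libraries (adjusted p = 0.132), without si-NC replicate 2 (0.138), without si-circ_63706 replicate 2 (0.0647) and with a replicate block (0.0767).

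SNORA81 in EIF4A2, whose end lies 448 bases before the start of SNORA63, rose. It had 52.2 and 63.4 TPM after si-NC, against 135, 100.2 and 108 TPM after si-circ_63706. All si-circ_63706 values were above both si-NC values, the mean was 1.98 times as high, and the log2 fold change was 0.97 ± 0.14 (SE; limma adjusted p = 0.00363). EIF4A2 itself, a paralog of EIF4A1, had 129 and 130.5 TPM after si-NC, against 114, 121 and 125 TPM after si-circ_63706, with no difference past the threshold (adjusted p = 0.128).

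The ratio of SNORA63 to SNORA81 within a library does not depend on how the library was scaled. It was 23.5 and 23.0 with si-NC and 8.17, 9.25 and 7.92 with si-circ_63706. The ratios of the groups were far apart relative to their spread (23.2 ± 0.364, n = 2, and 8.45 ± 0.708, n = 3, SD). An exact permutation test, with the two-sided p taken as 2 times the smaller one-sided p, gave p = 0.2. This is the smallest p that this form of the test allows for 2 against 3 libraries. The pairs were set out after values were seen. In all, 5 pairs of members with at least 20 TPM shared a host, and the adjusted p of this pair was 0.25. SNORA63 and SNORA81 are 34.8% identical over the longer of the pair. Both lie within an exon of at least 1 annotated EIF4A2 transcript, so reads of EIF4A2 could enter either value and the ratio.

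The other members in EIF4A2 were scarcely detected. A second SNORA63 gene (ENSG00000200418) was listed at 15.7 TPM in si-circ_63706 replicate 3 and at 0 in the other 4 libraries. SNORA4 was listed at 2.67 and 0 TPM after si-NC, against 5.43, 0 and 0.42 TPM after si-circ_63706. No difference in these RNAs was detectable at such levels.

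**Figure D3:**
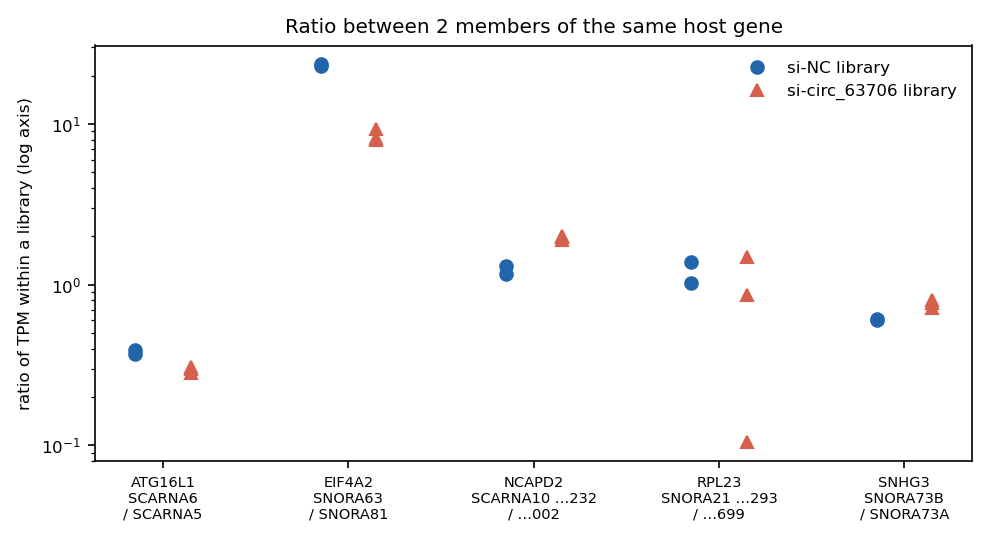
Ratio of TPM between both members of the same host gene within each library on a log axis, with circles for si-NC libraries (n = 2) and triangles for si-circ_63706 libraries (n = 3). The SNORA63 to SNORA81 ratio lies at 23.0 and 23.5 with si-NC and between 7.92 and 9.25 with si-circ_63706, and in RPL23 the groups overlap.

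In SNHG3, a non-coding gene that hosts both U17 RNAs, the ratio of SNORA73B to SNORA73A was 0.602 and 0.607 with si-NC and 0.799, 0.721 and 0.768 with si-circ_63706. The ratio was higher in all 3 si-circ_63706 libraries (exact permutation p = 0.2, adjusted p = 0.25). The RNAs are 93.2% identical, so the split of reads between them is uncertain. SNHG3 had a log2 fold change of -0.15 (limma adjusted p = 0.0704). SNORA73A overlaps an annotated exon of SNHG3, and SNORA73B lies in an intron.

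SNORA61 rose with a wide spread between libraries. It had 76.9 and 84.7 TPM after si-NC, against 239.7, 141 and 156 TPM after si-circ_63706. The lowest si-circ_63706 value was above the higher si-NC value, the mean was 2.21 times as high, and the log2 fold change was 1.10 ± 0.21 (SE; limma adjusted p = 0.00916). The call was lost without si-NC replicate 1 (adjusted p = 0.066). Its host SNHG12, a non-coding RNA, did not pass the test, at 21.8 ± 0.806 and 21.8 ± 2.03 TPM (limma adjusted p = 0.954). SNORA61 lies within an exon of at least 1 annotated SNHG12 transcript, so reads could be split between both. SNORA44, also in SNHG12, was listed at 0 with si-NC and at 34.5, 16.3 and 0 TPM with si-circ_63706, and did not pass the test (limma adjusted p = 0.12). It reached the minimum only through the si-circ_63706 libraries.

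SNORA74A, in the non-coding gene SNHG4, had 139.6 and 129 TPM after si-NC, against 204, 182 and 184 TPM after si-circ_63706. The rise was 1.42-fold with a log2 fold change of 0.50 ± 0.07 (SE; limma adjusted p = 0.0029). SNHG4 did not pass the test, with 9.46 ± 0.453 and 8.84 ± 1.59 TPM (adjusted p = 0.559). The counting of strand is not given, and SIL1 overlaps SNORA74A on the other strand.

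A pair of SNORA22 genes on chromosome 7 without an annotated host rose to a like degree. The first, ENSG00000206634, had 456 and 487 TPM after si-NC, against 788, 556 and 677 TPM after si-circ_63706 (log2 fold change 0.50 ± 0.14, limma adjusted p = 0.0285). The second, ENSG00000207344, had 65.2 and 71.8 TPM after si-NC, against 114, 107 and 78.3 TPM after si-circ_63706 (log2 fold change 0.52 ± 0.16, adjusted p = 0.0385). The groups did not overlap in either. The first lost its call without si-NC replicate 1 (adjusted p = 0.144), si-NC replicate 2 (0.097) or si-circ_63706 replicate 3 (0.0714), and with the replicate block (0.07). The second lost it without si-NC replicate 1 (0.179), si-NC replicate 2 (0.105), si-circ_63706 replicate 1 (0.0984) or si-circ_63706 replicate 2 (0.102), and kept it only without si-circ_63706 replicate 3.

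The copies are shown because they are so alike. They are 98.5% identical and differ at 2 bases, which are in capitals, so the reads of either may have been assigned to the other. ENSG00000206634 lies at chr7:65755526-65755659 and ENSG00000207344 at chr7:65065999-65066132, both on the plus strand.
SNORA22 (ENSG00000206634): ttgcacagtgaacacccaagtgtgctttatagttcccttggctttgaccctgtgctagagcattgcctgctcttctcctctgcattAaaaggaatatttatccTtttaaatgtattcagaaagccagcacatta
SNORA22 (ENSG00000207344): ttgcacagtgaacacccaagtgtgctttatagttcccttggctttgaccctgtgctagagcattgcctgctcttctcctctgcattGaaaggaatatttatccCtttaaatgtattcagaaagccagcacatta

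Another SNORA22 gene (ENSG00000206603), in CCT6A, a chaperonin gene, was not called. It had 34.4 and 40.5 TPM after si-NC, against 37.1, 37.3 and 39.1 TPM after si-circ_63706 (log2 fold change 0.02 ± 0.07, limma adjusted p = 0.857). It is 92.8% identical to its closest listed copy. Of 123 members with a sequence of at most 500 bases, 53 had a listed SNORA or SCARNA gene at least 90% identical, and 7 of the called members did. Among the 7 were SNORA48 (91.9%) and the called SNORA63 gene (ENSG00000200320, 92.4%), each with its closest copy under the minimum. Reads of these may also have been split between copies.

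The other called SNORA members were less abundant. SNORA52 lies within an exon of at least 1 annotated transcript of the ribosomal protein gene RPLP2, so reads could be split between both. SNORA52 had 73.8 and 60.5 TPM after si-NC, against 45.9, 44.2 and 25.0 TPM after si-circ_63706 (log2 fold change -0.83 ± 0.26, limma adjusted p = 0.0418). It lost its call with centred libraries (adjusted p = 0.129) and without si-NC replicate 1 (0.197), si-NC replicate 2 (0.1) or si-circ_63706 replicate 2 (0.0515). SNORA37, in an intron of MBD2 on chromosome 18, had 3.78 and 4.16 TPM after si-NC, against 13.5, 12.3 and 8.02 TPM after si-circ_63706. Its log2 fold change was 1.27 ± 0.19 (limma adjusted p = 0.00444), and 1.14 to 1.48 in the leave-one-out fits. It is 93.8% identical to SNORA30, which has the same length and was also listed at 3.78 TPM in si-NC replicate 1. The si-NC values of SNORA37 thus lie near the lowest recurring ones.

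SNORA2A, in an intron of KANSL2, had 2.68 and 2.96 TPM after si-NC, against 24.0, 11.6 and 5.71 TPM after si-circ_63706 (log2 fold change 1.75 ± 0.49, limma adjusted p = 0.0305). The si-NC values of SNORA2A also lie near the lowest recurring ones. It lost its call without si-NC replicate 1 (0.132), si-NC replicate 2 (0.115) or si-circ_63706 replicate 2 (0.0716). The SNORA46 gene in AHSA1 (ENSG00000212371) was listed at 8.38 and 3.97 TPM after si-NC and at 0, 0 and 1.28 TPM after si-circ_63706. It reached the minimum only through the si-NC libraries, so that its call (adjusted p = 0.0074, and 0.0556 without si-NC replicate 1) is no support for a fall among the members. A SNORA31 gene in TPT1 (ENSG00000199477) was listed at 10.7 and 3.92 TPM after si-NC and at 3.17, 0 and 0 TPM after si-circ_63706 (adjusted p = 0.042, and 0.0838 with centred libraries). The latter kept its call only without si-circ_63706 replicate 1, and its adjusted p reached 0.22 without si-NC replicate 1, 0.0693 without si-NC replicate 2, 0.105 without si-circ_63706 replicate 2 and 0.106 without si-circ_63706 replicate 3. These values lie near the lowest recurring ones, and no fold is given.

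SNORA53, in SLC25A3, lay just outside the threshold, and was singled out after its values were seen. It had 113 and 117 TPM after si-NC, against 150.5, 127 and 130.1 TPM after si-circ_63706 (log2 fold change 0.24 ± 0.08, limma adjusted p = 0.0501, and 0.0265 with centred libraries).

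Of the 19 scaRNA entries, 3 rose and 3 fell (15.8% each, where 4.16% and 35.4% of all genes were called), and 8 had an unadjusted p under 0.05 (42.1%, against 50.2% of all genes). Their median log2 fold change was 0.01. With centred libraries 6 rose and 3 fell, where 13.1% and 13.7% of all genes were called. The summed TPM of the scaRNA entries was 2785 and 2876 with si-NC and 3030, 3015 and 3189 with si-circ_63706, which did not overlap. Without the nested SCARNA10 entry, it was 2185 and 2292 with si-NC and 2084, 2060.6 and 2234 with si-circ_63706, and the groups overlapped.

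Among the scaRNAs with both domains, SCARNA12 had the largest fall. It had 149 and 163 TPM after si-NC, against 92.4, 98.4 and 96.1 TPM after si-circ_63706. The values of the groups were well apart, at 0.612 of the si-NC mean, with a log2 fold change of -0.70 ± 0.06 (SE; limma adjusted p = 0.00101). Its host PHB2, which encodes a prohibitin of the inner mitochondrial membrane, fell by 0.27 on the log2 scale (adjusted p = 0.00573), from 126 ± 3.10 to 104 ± 2.87 TPM. SCARNA12 overlaps an exon of PHB2 in part.

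SCARNA6 had 52.9 and 53.2 TPM after si-NC, against 39.96, 43.6 and 43.2 TPM after si-circ_63706. It fell in a narrow spread, with a log2 fold change of -0.32 ± 0.05 (SE; limma adjusted p = 0.00548, and 0.0215 with centred libraries). SCARNA5, 12674 bases away in the same host, had 135 and 144 TPM after si-NC, against 142, 142 and 144 TPM after si-circ_63706 (log2 fold change 0.03 ± 0.05, adjusted p = 0.594). With centred libraries SCARNA5 was higher (log2 fold change 0.19, adjusted p = 0.0157).

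The ratio of SCARNA6 to SCARNA5 was 0.391 and 0.370 with si-NC and 0.281, 0.307 and 0.300 with si-circ_63706. It was lower in all 3 si-circ_63706 libraries whatever the scaling (exact permutation p = 0.2, adjusted p = 0.25). ATG16L1, their host and a component of autophagosome formation, had 16.1 ± 0.396 and 16.5 ± 0.399 TPM (limma adjusted p = 0.677). With centred libraries ATG16L1 was higher (log2 fold change 0.19, adjusted p = 0.0221). Both scaRNAs lie in introns of it.

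SCARNA10, in NCAPD2, is listed as a pair of genes, of which the shorter (ENSG00000276232, chr12:6510275-6510522, 248 bases, labeled as sense intronic and named AC006064.5 in GENCODE 29) lies within the longer (ENSG00000239002, chr12:6510222-6510551, 330 bases). A read within the shorter matches both. The shorter had 599.8 and 583 TPM after si-NC, against 946, 955 and 956 TPM after si-circ_63706, with the lowest adjusted p among the members (log2 fold change 0.69 ± 0.04, limma adjusted p = 0.00058). The longer had 457 and 499.97 TPM after si-NC, against 469, 485 and 502 TPM after si-circ_63706 (log2 fold change 0.02 ± 0.06, adjusted p = 0.784, and 0.0234 with centred libraries, where it was higher).

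The ratio of the shorter to the longer SCARNA10 entry was 1.31 and 1.17 with si-NC and 2.02, 1.97 and 1.90 with si-circ_63706 (exact permutation p = 0.2, adjusted p = 0.25). Neither entry can be read as the level of SCARNA10 by itself. The host NCAPD2, a condensin subunit, fell by 0.39 on the log2 scale (limma adjusted p = 0.00289).

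Among the scaRNAs of the C/D kind, SCARNA2 fell. Its main entry (ENSG00000278249) had 255 and 221 TPM after si-NC, against 134, 153 and 154 TPM after si-circ_63706 (log2 fold change -0.69 ± 0.09, limma adjusted p = 0.00254). The second entry (ENSG00000270066), which overlaps it and is 98.4% identical, had 11.3 and 35.4 TPM after si-NC, against 11.1, 5.08 and 15.4 TPM after si-circ_63706, and its groups overlapped (adjusted p = 0.189). SCARNA2 has no annotated host.

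SCARNA9, in CEP295, rose by a small amount, from 25.7 and 26.4 TPM to 28.6, 31.5 and 30.7 TPM (log2 fold change 0.21 ± 0.05, limma adjusted p = 0.0253). The groups did not overlap. The call was kept only without si-circ_63706 replicate 1 among the leave-one-out fits. The adjusted p was 0.136 without si-NC replicate 1, 0.097 without si-NC replicate 2, 0.083 without si-circ_63706 replicate 2, 0.0576 without si-circ_63706 replicate 3 and 0.0612 with the replicate block. SCARNA7, in KPNA4, had 754 and 775 TPM after si-NC, against 819, 811 and 865 TPM after si-circ_63706. All of the latter were higher, and the difference passed only with libraries rescaled (log2 fold change 0.12 ± 0.05, adjusted p = 0.0885, and 0.00335 when centred).

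Of 10 scaRNA entries of the H/ACA kind, SCARNA16 rose and none of the others was called. SCARNA16, in SEC14L1, had 48.7 and 58.2 TPM after si-NC, against 77.7, 65.4 and 84.9 TPM after si-circ_63706 (log2 fold change 0.50 ± 0.12, limma adjusted p = 0.02). Its groups did not overlap, and the call was lost without si-NC replicate 1 (0.127), without si-circ_63706 replicate 1 (0.0639) and with the replicate block (0.0694). A copy under the minimum is 92.5% identical to it. SCARNA22, in NSD2, stood out for a single library, with 53.7 and 59.0 TPM after si-NC, against 56.2, 10.6 and 61.9 TPM after si-circ_63706 (adjusted p = 0.441).

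The remaining H/ACA scaRNAs were low. SCARNA21 ranged from 4.82 to 11.6 TPM, SCARNA1 from 2.49 to 3.30 TPM and SCARNA15 from 1.03 to 1.41 TPM over the 5 libraries. SCARNA4, SCARNA11, SCARNA18 and SCARNA23 were listed at 0 in at least 1 library and reached 13.3, 8.12, 7.60 and 11.8 TPM at the most. SCARNA15 is listed as a processed transcript that spans 4325 bases, so its TPM is not that of a short RNA. None of these passed the test.

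**Figure D4:**
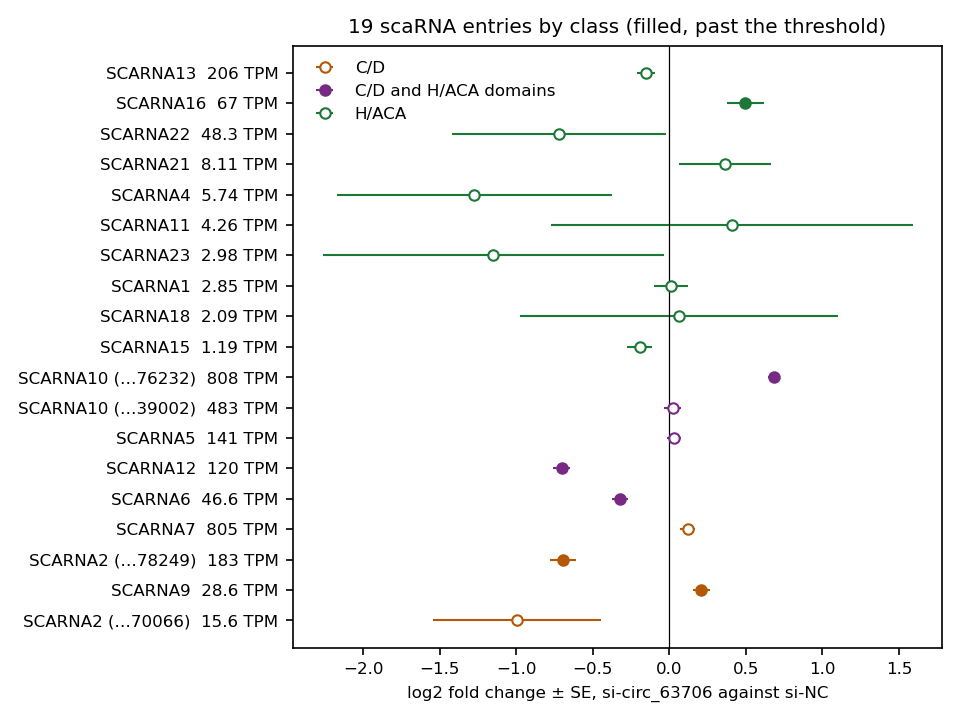
Log2 fold change with its SE for the 19 scaRNA entries (si-circ_63706, n = 3, against si-NC, n = 2), ordered by class and by mean level, which is printed beside each symbol. The 6 filled points passed the threshold, 3 on each side of 0, and the SE is wide for entries listed at 0 in some libraries.

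Most members lie in host genes. A host was taken as an annotated protein-coding or long non-coding gene on the same strand that spans the whole member. Where several genes did so, the one with the highest mean TPM was taken, and the others were not compared. SNORA48 and SNORA67 had 3 such genes. SNORA73A, SNORA73B, SNORA74A, a SNORA74 gene (ENSG00000252213) and SCARNA16 had 2. Hosts were found for 111 members, 89 of them in protein-coding genes, and 15 members had none. By the annotation, 68 members lay in an intron, 37 in an exon of at least 1 transcript and 6 in part in an exon. There were 83 hosts, of which 20 held more than 1 member, 11 encoded ribosomal proteins and 10 were SNHG genes.

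Of 80 hosts tested, 2 rose and 23 fell (limma), and with centred libraries 19 rose and 8 fell. The split of calls thus depended on the scaling. The hosts that rose were RPL27A, a ribosomal protein gene, and PABPC4, a poly(A)-binding protein gene. As deposited, 2.5% of the hosts rose and 28.7% fell, where 4.16% and 35.4% of all genes were called. With centred libraries, 13.1% of all genes were called higher and 13.7% lower. Of the hosts of called members, EIF4A1, PHB2, NCAPD2, KANSL2 and CEP295 fell. Of 8 members that rose and had a host, 3 had a host that fell and 5 a host that did not pass the test. Of 7 members that fell and had a host, 2 had a host that fell and 5 a host that did not pass. No called member had a host that was called higher. These counts hold for the values as deposited. With centred libraries KANSL2 and CEP295 lost their calls (adjusted p = 0.258 and 0.924), and RPLP2, ATG16L1, TPT1 and AHSA1 were higher (0.0136, 0.0221, 0.0035 and 0.0237). Of the 8 members that rose, 1 then had a host that was lower and none a host that was higher. Of the 7 members that fell, 2 had a host that was lower and 4 a host that was higher.

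Across 36 members with at least 20 TPM and a tested host, the log2 fold changes of member and host had a Pearson's r of -0.08 and a Spearman's rho of -0.13. Across all 108 members with a tested host they were 0.04 and -0.01. The points share the same 5 libraries, several share a host, and genes are not replicates, so these are descriptions. The levels were as weakly related, with a rho of -0.10 over the 36 members and 0.14 over the 108.

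**Figure D5:**
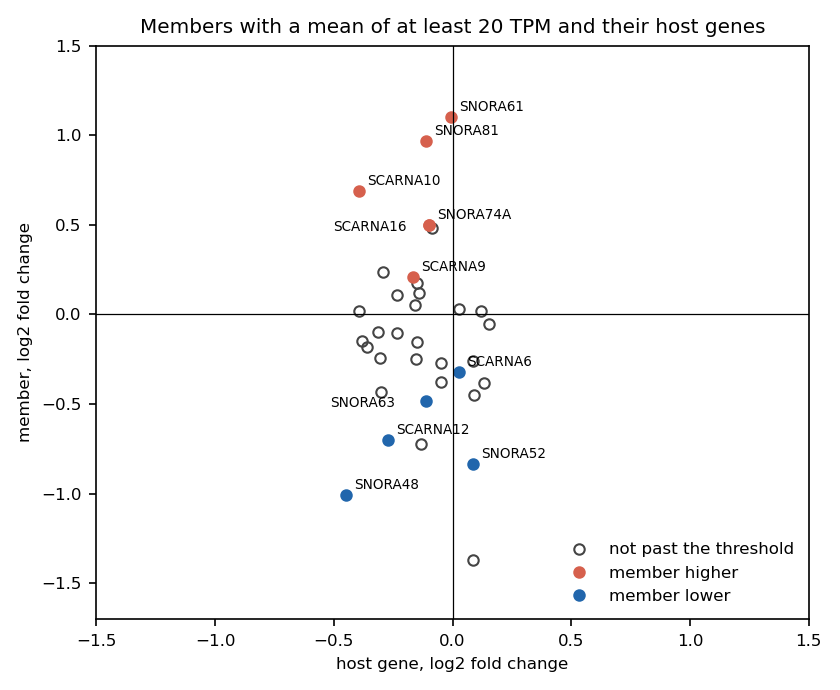
Log2 fold change of the 36 members with at least 20 TPM (vertical) against that of their host gene (horizontal), both for si-circ_63706 (n = 3) against si-NC (n = 2). Hosts lie in a narrow band while members spread from SNORA61 at 1.10 to SNORA48 at -1.01 and an uncalled SNORA21 gene (ENSG00000199293) at -1.37. The SE was 0.80 for this SNORA21 gene and 0.05 for its host RPL23, so the spread of members holds noise that differs from that of hosts.

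The hosts with the most members held RNAs that were mostly near the limit. SNHG17, a non-coding gene, held 5 members of the SNORA71 family. SNORA71D had 11.3 and 28.1 TPM after si-NC, against 10.1, 15.4 and 27.1 TPM after si-circ_63706. SNORA71A had 11.3 and 37.4 TPM after si-NC, against 17.7, 3.07 and 18.1 TPM after si-circ_63706. SNORA71B and SNORA71C did not exceed 8.85 and 18.1 TPM in any library, and SNORA71 (ENSG00000277034) did not exceed 6.28 TPM. None of the 5 passed the test, nor did SNHG17 (limma adjusted p = 0.305). Set against si-NC replicate 2 alone, where it was listed at 0, SNORA71C was called higher (adjusted p = 0.0256). SNORA71 had 0 TPM listed for either si-NC library and reached the minimum only through the si-circ_63706 libraries.

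TAF1D, a gene of the RNA polymerase I machinery, held 3 members. SNORA8 had 31.2 and 48.6 TPM after si-NC, against 38.5, 17.7 and 37.6 TPM after si-circ_63706, and the groups overlapped (limma adjusted p = 0.414). SNORA18 did not exceed 8.30 TPM. SNORA40 (ENSG00000210825) was listed at 0 in 3 libraries and at 22.2 and 7.43 TPM in si-circ_63706 replicates 2 and 3, and reached the minimum only through these.

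SNHG7, another non-coding gene, also held 3 members. The main SNORA17B entry (ENSG00000280496) had 143 and 153 TPM after si-NC, against 189.9, 166 and 115 TPM after si-circ_63706, which spanned the si-NC values (adjusted p = 0.848 by limma). The overlapping SNORA17B entry (ENSG00000276161) was listed at 22.4 TPM in si-circ_63706 replicate 2 and at 0 in the others. SNORA17 did not exceed 7.30 TPM. In RPL23, which held a pair of SNORA21 genes with at least 20 TPM, the ratio between them was 1.39 and 1.03 with si-NC and 1.49, 0.865 and 0.105 with si-circ_63706 (exact permutation p = 0.6).

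The proteins of the H/ACA particle were then examined. DKC1, dyskerin, the pseudouridine synthase, had 57.5 and 60.5 TPM after si-NC, against 55.8, 49.2 and 56.7 TPM after si-circ_63706 (limma adjusted p = 0.182). NHP2 had 95.2 ± 1.11 and 87.9 ± 2.28 TPM (adjusted p = 0.0765). NOP10 fell from 89.1 ± 1.65 to 78.0 ± 2.98 TPM (log2 fold change -0.19 ± 0.05, adjusted p = 0.0233) and GAR1 from 6.11 ± 0.969 to 4.52 ± 0.217 TPM (-0.36 ± 0.09, adjusted p = 0.0247). Neither was called with centred libraries (adjusted p = 0.517 and 0.143). All 4 had si-circ_63706 values below both si-NC values, as had 55.2% of all genes. DKC1 is itself host to 2 members, SNORA36A and SNORA56, which did not exceed 3.17 and 4.08 TPM.

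Of 9 assembly factors, 1 rose (11.1%) and 3 fell (33.3%), where 4.16% and 35.4% of all genes were called. RPAP3, a partner of HSP90 in particle assembly, rose from 32.4 ± 0.764 to 38.6 ± 2.36 TPM (log2 fold change 0.24 ± 0.06, limma adjusted p = 0.022). The helicase-like RUVBL2 fell from 136 ± 1.99 to 100.4 ± 2.42 TPM (-0.43 ± 0.04, adjusted p = 0.00145), and RUVBL1 and PIH1D1, of the same assembly complex, fell by 0.25 and 0.26 on the log2 scale (adjusted p = 0.0146 and 0.00809). With centred libraries RPAP3 and RUVBL2 kept their calls (adjusted p = 0.00742 and 0.00295), RUVBL1 and PIH1D1 lost them (0.134 and 0.147), and NOLC1, a nucleolar and Cajal body chaperone, was higher (0.0146). NAF1, SHQ1, NOPCHAP1 and TCOF1 were not called in either.

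Of 7 genes for Cajal bodies and scaRNA localization, 2 fell (28.6%), where 35.4% of all genes were called lower. They were WRAP53, the protein that binds the Cajal body box, and USPL1 (log2 fold change -0.22 for both, limma adjusted p = 0.0209 and 0.0439). Neither was called with centred libraries (0.295 and 0.498). Of 21 genes for 3′ end trimming and nuclear RNA decay, 9 fell and none rose, and 13 had an unadjusted p under 0.05. These are 42.9% and 61.9%, where 35.4% of all genes were called lower and 50.2% had such a p. The largest fall was that of PABPN1, the nuclear poly(A)-binding protein, from 56.2 ± 1.63 to 39.3 ± 1.71 TPM (-0.51 ± 0.05, adjusted p = 0.00161). The exonuclease PARN, which trims 3′ ends of H/ACA RNAs, fell from a mean of 18.2 TPM in the si-NC libraries to 12.9, 14.6 and 14.6 TPM (log2 fold change -0.36 ± 0.07, adjusted p = 0.0111).

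The others that fell were the exosome subunits EXOSC2, EXOSC5, EXOSC6, EXOSC7 and EXOSC9, the exosome helicase MTREX and the exonuclease XRN2, by 0.23 to 0.42 on the log2 scale. With centred libraries, PABPN1, PARN, EXOSC5, EXOSC7, EXOSC9 and XRN2 were lower and RBM7 was higher. The median log2 fold change was -0.16 for the core proteins, -0.10 for the assembly factors, -0.15 for the Cajal body genes and -0.19 for the trimming genes, next to -0.16 for all genes. In total 1 of 42 tested genes of these lists and of telomerase rose and 17 fell, or 2.38% and 40.5%, where 4.16% and 35.4% of all genes were called.

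The telomerase RNA TERC carries an H/ACA domain and is no member by its symbol. It fell from 12.1 and 9.52 TPM with si-NC to 7.43, 7.82 and 8.98 TPM after si-circ_63706 (log2 fold change -0.38 ± 0.11, limma adjusted p = 0.0402, and 0.181 with centred libraries). TERT, the protein subunit, was under the minimum, at 1.06 ± 0.141 and 0.537 ± 0.0896 TPM.

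As a comparison among small RNAs, 17 SNORD genes reached the minimum, of which 3 rose (17.6%) and 4 fell (23.5%), with a median log2 fold change of -0.31. Of 44 snRNA genes 4 rose and 4 fell (9.09% each), with a median of 0.09. Among all genes, 4.16% were called higher and 35.4% lower. The summed TPM of these SNORD genes was 4754 and 4773 with si-NC and 4031, 3790.1 and 3886 with si-circ_63706, which did not overlap, whereas the summed TPM of the SNORA members did overlap, at 9295 and 9759.6 against 10401, 8177 and 8330.2. The difference between these classes was not tested.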

How the data were processed

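The authors deposited 1 table of TPM per gene for the 5 libraries, and per the labels the processing notes name cutadapt 2.3, STAR 2.7.0d, RSEM 1.3.1 and hg38, without their roles. TPM divides reads by gene length and scales each library to the same total, so a shift in 1 class moves all others. The annotation and the handling of strand and of reads matching several genes are not given in the sources used here. Genes with a mean of at least 1 TPM were tested with limma 3.58.1 in R 4.3.3 on log2(TPM + 1), which understates changes of low genes, moderated with a trend in the variance (two-sided p adjusted after Benjamini and Hochberg, threshold 0.05), after tests on simulated data. Alternatives were another pseudocount or minimum, centring on the median log2 ratio of genes with at least 10 TPM, quantile normalization, rescaling to protein-coding TPM, no trend, a replicate block and leaving out each library. All 126 members matched GENCODE 29 on GRCh38, used for positions, hosts and sequences. Named were the 12 members with the highest means, up to 10 highest and 10 lowest called members without overlap, all scaRNAs, members of the 4 hosts with most members, those nearest to the minimum, called genes of the protein lists with the core proteins and TERC, and the hosts. Members and lists were chosen with earlier results of these data known. Ratios within libraries were compared by exact permutation tests.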

Additional observations from a re-analysis of the deposited data

How the results depend on the processing

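Among 47 named members, none changed direction while called under any alternative. The counts of members called stayed within 1.5 times of 10 higher and 8 lower except as follows. Without a minimum, where 41817 genes were tested, 4 were higher and 4 lower, and 5 were lower with centred libraries and with the protein-coding total. Leaving out 1 library gave 7 to 15 higher and 7 to 13 lower members, with 13 lower without si-circ_63706 replicate 1 and 15 higher without si-circ_63706 replicate 2. With the replicate block, which leaves si-circ_63706 replicate 3 without a partner, 13 members were higher and 12 lower. The deviations of same-numbered libraries had a correlation of 0.02 over all genes, so the numbers were not taken to pair the libraries.

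Of the hosts, 2 were higher and 23 lower. The counts were 1 and 15 without a minimum, 19 and 8 with centred libraries, 12 and 9 with quantile normalization, 18 and 9 with the protein-coding total, and 1 higher and 19 lower with the replicate block. Leaving out 1 library gave 1 to 4 higher and 9 to 20 lower, with 9 lower without si-NC replicate 1 and 12 without si-NC replicate 2. Of the protein and telomerase lists, 1 was higher and 17 lower. The counts were 0 and 10 without a minimum, 3 and 7 with centred libraries, 4 and 4 with quantile normalization, and 2 and 8 with the protein-coding total. Leaving out 1 library gave 0 to 1 higher and 6 to 17 lower, with 8 lower without si-NC replicate 1 and 6 without si-NC replicate 2. The replicate block left these counts at 1 and 17. The cause of these moves was not tested.

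TPM gives no counts, so counting intervals were not computed.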
